A study of Homo sapiens with 2 samples.

Results

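The genes described here are 10 named genes of the canonical Wnt pathway: beta-catenin itself (CTNNB1), components of the complex that destroys it (APC, AXIN1, AXIN2 and GSK3B), transcription factors it works with (LEF1 and TCF7L2), and antagonists that dampen the pathway (NKD1, DKK1 and DKK3). They were chosen by name and matched to the Entrez identifiers in the files. Of 19316 genes listed in at least 1 library, 9 of the 10 were present in both, and LEF1 was listed in neither. A gene is called measured where either library lists it at 1 FPKM or more (fragments per kilobase of transcript, scaled to library depth), which 8 of the 9 met, among 14377 genes in all. DKK3 stayed below that level.

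The RNA, selected by its poly(A) tail, came from SNU449, an established human cell line labelled as liver cancer, 7 days after lentiviral delivery of a short hairpin RNA (shRNA). One group carried an shRNA against FZD2, a frizzled receptor for Wnt ligands, and the other a negative-control shRNA, so that lentivirus, hairpin expression and culture medium were common to both. Each group was 1 library, and the labels do not say whether the cells were a pool or a clone, how many FZD2 hairpins were used or what the control hairpin targets. Replicate error is therefore unknown for every value, and the differences carry no test.

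Without a Wnt signal, the scaffolds APC, AXIN1 and AXIN2 hold beta-catenin next to the kinase GSK3B, which marks it for ubiquitination and degradation. A Wnt ligand bound to a frizzled receptor and its LRP co-receptor stops this, and beta-catenin then enters the nucleus and joins TCF/LEF proteins on DNA. Several of the transcripts made in response, AXIN2, NKD1, DKK1 and LEF1 among them, encode feedback regulators or partners of the pathway. In liver cancer CTNNB1 and AXIN1 are recurrently mutated genes. Regulation of beta-catenin acts largely on the protein, which RNA levels do not show.

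The libraries held 8234592 (FZD2 shRNA) and 8436870 (control) expected counts, which are estimated reads per gene. FZD2, the targeted gene, had 15.76 FPKM with its shRNA and 59.45 with the control, with expected counts of 503.28 and 1949.91 that were not whole, so some of its reads may be shared with other genes. Differences are given as the log2 ratio of FPKM + 1, FZD2 shRNA over control, and a gene was called higher or lower at 2-fold. Beside it stands the log2 ratio of the expected counts scaled to the library totals, with a 95% interval that covers counting error only. Of all measured genes, 2188 were called higher and 1066 lower, or 2957 and 349 once a trend with GC content was taken out. The median ratio was 0.48 over 6223 genes whose expected counts were not whole, here called genes with shared reads, and -0.25 over the 8154 others. The label's cell type rests on few markers, since 2 of 10 hepatocyte markers were measured, FGB and FGG, while ALB was at 0.05 and 0 FPKM and HNF4A at 0 and 0.03. One label calls the cells prostate, and the prostate genes KLK2, KLK3 and TMPRSS2 were unlisted. Summed over its list, the hepatocyte markers stood at 230.11 and 193.82 FPKM and the leukocyte markers, of which 4 of 6 were measured, at 94.23 and 27.74. Within that list LYZ was at 71.47 and 12.31 FPKM, CD68 at 19.45 and 12.15 and PTPRC at 1.61 and 1.56, all of them with shared reads, CD14 was at 1.7 and 1.72, and CD3E was unlisted. Fibroblast and stellate markers, 3 of 6 measured, summed to 338.85 and 431.41 FPKM, prostate markers, 3 of 7 measured, to 14.28 and 12.24, and endothelial markers, 1 of 5 measured, to 2.59 and 0.56. Their part in the results below was not tested.

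DKK1 was the member that differed by 2-fold or more between the libraries, and it was lower with FZD2 shRNA. The call covers 1 of 8 measured members, against 7.41% of all measured genes called lower and 10.2% of those without shared reads. No member was called higher, where 15.2% of all measured genes and 4.19% of those without shared reads were, although NKD1 came close at 0.98. Of the 8 members, 7 had no shared reads. The median ratio of the 8 was -0.50, beside a median near 0 (-0.0042) over all measured genes and -0.25 over those without shared reads. By the counting interval alone, 5 of the 8 lay below 1 (CTNNB1, APC, AXIN1, AXIN2 and DKK1), where 36.8% of all measured genes and 48.1% of those without shared reads did. NKD1 alone lay above, where 35.5% of all measured genes did. APC, AXIN1 and AXIN2 reached 1 FPKM only in the control library, and NKD1 only in the FZD2 shRNA library. The filter, which was the same for all genes, thus favours the direction that these members show, and their count is a description only. With a pseudocount of 0.1 FPKM, 3 members were called lower (APC, AXIN2 and DKK1) and NKD1 higher, beside 12.2% and 19.9% of all measured genes. In a bulk library, fewer cells with a transcript and less of it per cell cannot be told apart.

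**Figure D1:**
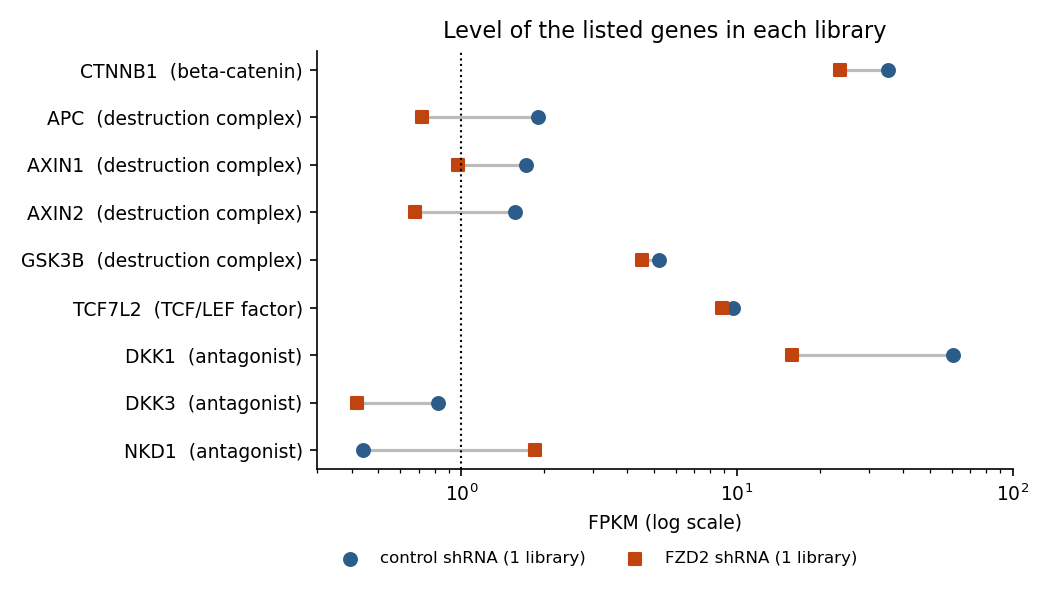
FPKM on a log axis of the 9 listed genes in the FZD2 shRNA library (squares) and the control library (circles), with the dotted line at 1 FPKM. DKK1 (15.78 and 60.8) and NKD1 (1.85 and 0.44) show the widest gaps, in opposite directions, whereas GSK3B and TCF7L2 nearly coincide.

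CTNNB1, which encodes beta-catenin, was among the more abundant transcripts in both libraries, at 23.71 FPKM with FZD2 shRNA and 35.14 with the control, or 67.5% of the control level. The ratio was -0.55. Its expected counts were 675 and 1059, a count ratio of -0.61 (-0.76 to -0.47), so the difference was larger than counting error but short of 2-fold. Its transcripts have a GC content of 46.1%, and measured genes without shared reads with a GC content of 45 to 50% had a median ratio of -0.46. With the GC trend taken out, the CTNNB1 ratio was -0.08. The length that the files list for the gene, averaged over 4 transcripts, was 3421.93 bases with FZD2 shRNA and 3525.28 with the control.

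The scaffolds of the destruction complex were scarce in both libraries and lower in the FZD2 shRNA library. APC, the large scaffold that is lost in most colorectal cancers, was at 0.72 FPKM with FZD2 shRNA and 1.9 with the control. The ratio was -0.75 on the FPKM + 1 scale, which compresses genes this low. Its 65 and 176 expected counts gave a count ratio of -1.40 (-1.84 to -0.98), a difference larger than counting error. APC passed 2-fold with a pseudocount of 0.1 FPKM (-1.29) and in CPM (counts scaled to the library total, -1.30), and stood at -0.24 with the GC trend taken out. At a GC content of 40.3% it lies among genes (40 to 45%) whose median was -0.53 in FPKM and -0.68 in counts.

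AXIN1, the constitutive scaffold of the complex, was at 0.97 FPKM with FZD2 shRNA and 1.71 with the control. The ratio was -0.46, and 29 and 52 expected counts gave -0.81 (-1.52 to -0.13). Unlike APC and CTNNB1, AXIN1 is GC-rich at 62.4%, where measured genes without shared reads (60% or more) had a median of 0.13. Taking the GC trend out moved AXIN1 further from 0, to -0.56.

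AXIN2, the AXIN1 homologue that beta-catenin itself induces as negative feedback, was at 0.68 FPKM with FZD2 shRNA and 1.57 with the control. The ratio was -0.61, and 24 and 57 expected counts gave -1.21 (-1.97 to -0.50). With a pseudocount of 0.1 FPKM it passed 2-fold, at -1.10, and with the GC trend taken out it was at -0.37. The intervals of APC, AXIN1 and AXIN2 overlap one another, so at this depth the 3 scaffolds could not be ordered by the size of their difference.

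GSK3B, the kinase of the complex, was at 4.51 FPKM with FZD2 shRNA and 5.22 with the control, a ratio of -0.17 that turned to 0.34 with the GC trend taken out. Its 268 and 318 expected counts gave -0.21 (-0.45 to 0.03), an interval that holds equality and leaves out a decrease of 2-fold. The count interval of APC does not overlap that of GSK3B. The GC trend was nearly the same for both genes (-0.515 for APC and -0.513 for GSK3B). Taking it out shifted both FPKM ratios alike and left APC (-0.24) below GSK3B (0.34).

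**Figure D2:**
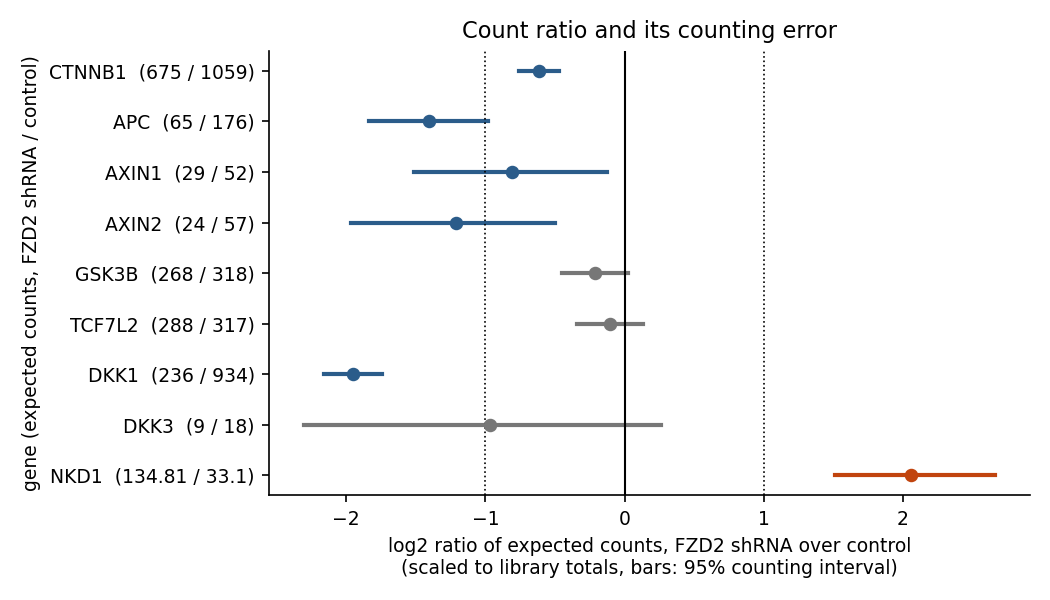
Log2 ratio of expected counts scaled to library totals, FZD2 shRNA over control, for the 9 listed genes, with bars for the 95% counting interval and dotted lines at 2-fold. Blue bars lie below equality, the orange bar of NKD1 above it, and grey bars (GSK3B, TCF7L2 and DKK3) include it.

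Of the TCF/LEF factors, TCF7L2 was measured and LEF1 was not listed. TCF7L2, a DNA-binding partner of beta-catenin that can also repress its targets, was at 8.81 FPKM with FZD2 shRNA and 9.65 with the control. The ratio was -0.12, which became 0.03 in TPM (FPKM rescaled to a common total) and 0.29 with the GC trend taken out. Its 288 and 317 expected counts gave -0.10 (-0.34 to 0.13), so no difference was detectable at this depth. LEF1, a TCF family factor first known from lymphoid cells and itself a beta-catenin target, had 0 counts in both libraries, which allows up to 0.364 and 0.356 CPM. The other measured family members, named here after their values were seen, were TCF7L1 (6.08 and 4.32 FPKM, ratio 0.41) and TCF7 (3.32 and 2.05 FPKM, ratio 0.50, shared reads). TCF7L2 stood at 1.45 times the FPKM of TCF7L1 with FZD2 shRNA (counting interval 1.18 to 1.78) and 2.23 times with the control (1.79 to 2.81). TCF7L2 was thus the most abundant of these 3 in each library. With the GC trend taken out, the ratios of TCF7L2 (0.29) and TCF7L1 (0.35) were close to each other.

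Among the antagonists, DKK1 and NKD1 lay on opposite sides of the control. DKK1, a secreted protein that binds the LRP co-receptors and blocks Wnt reception, was at 15.78 FPKM with FZD2 shRNA and 60.8 with the control, or 26.0% of the control level. The ratio was -1.88. Its 236 and 934 expected counts gave -1.95 (-2.16 to -1.74), and of 14377 measured genes 82 had a lower FPKM ratio. DKK1 has 1 listed transcript and no shared reads. With a GC content of 43.5% it belongs to the range of 40 to 45% (median -0.53), and with the GC trend taken out it was still past 2-fold, at -1.37. Over 10 alternative settings its ratio ran from -1.94 to -1.37. Those that only filter genes leave it at -1.88 by construction.

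The promoter table from RefSeq (GRCh38.p14) matched 7 of the 10 genes, with 10 start sites. AXIN2, NKD1 and DKK3 were not among them. Printed below are the 250 bases before the start of DKK1, the member past 2-fold, of LEF1, the target gene without reads, and of CTNNB1, the abundant core gene. Capitals mark matches on either strand to CTTTGAT or CTTTGAA, which are forms of the core that TCF/LEF proteins bind. Other forms of that core were not searched for and are not marked.
DKK1 (GRCh38.p14 chr10:52314031-52314280, plus strand): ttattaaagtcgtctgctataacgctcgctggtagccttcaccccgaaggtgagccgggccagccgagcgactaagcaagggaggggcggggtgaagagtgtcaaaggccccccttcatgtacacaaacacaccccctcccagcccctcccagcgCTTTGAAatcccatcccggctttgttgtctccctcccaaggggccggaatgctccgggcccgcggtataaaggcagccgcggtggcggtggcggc
LEF1 (GRCh38.p14 chr4:108166302-108166551, minus strand): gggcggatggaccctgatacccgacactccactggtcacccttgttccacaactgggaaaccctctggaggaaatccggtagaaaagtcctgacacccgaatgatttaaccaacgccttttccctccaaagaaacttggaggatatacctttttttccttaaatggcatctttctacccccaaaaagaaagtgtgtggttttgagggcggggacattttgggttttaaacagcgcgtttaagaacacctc
CTNNB1 (GRCh38.p14 chr3:41199255-41199504, plus strand): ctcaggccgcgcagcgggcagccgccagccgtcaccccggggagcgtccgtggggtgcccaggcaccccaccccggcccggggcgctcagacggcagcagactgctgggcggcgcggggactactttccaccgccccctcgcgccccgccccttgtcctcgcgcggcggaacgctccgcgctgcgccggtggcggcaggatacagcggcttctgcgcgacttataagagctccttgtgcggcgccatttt
DKK1 held 1 match, CTTTGAA, with its first base at -95 from the start, and the other 9 start sites held none. Of 35116 promoters in the table, 2086 (5.94%) held at least 1. A match of letters is a description and not a binding site, and no match says only that these letters are not in this window. The promoters also differ in composition, with a GC content of 62.8% for DKK1, 47.6% for LEF1 and 74.4% for CTNNB1, beside a median of 58.0% over all promoters in the table.

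NKD1, an intracellular protein that binds Dishevelled and is induced as feedback, was the member that was higher with FZD2 shRNA, at 1.85 FPKM and 0.44 with the control. The ratio was 0.98, and 134.81 and 33.1 expected counts gave 2.06 (1.51 to 2.66). The gene fell on either side of 2-fold by setting, from 0.33 with a pseudocount of 5 FPKM to 1.85 with a pseudocount of 0.1. NKD1 was the 1 measured member with shared reads, so its level is uncertain. Among measured genes with shared reads, 29.7% were called higher and 56.7% had a counting interval above 1. Alu-like sequence made up 0.392% of its transcript. The antisense gene NKD1-AS1, which was not listed in either library, overlaps it, and whether counting used strand: not given in the sources used here. Their part in the NKD1 value was not tested.

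DKK3, a divergent Dickkopf family member often described as a tumour suppressor, was at 0.42 FPKM with FZD2 shRNA and 0.82 with the control. Its 9 and 18 expected counts gave a count ratio of -0.96 (-2.30 to 0.26), so that neither equality nor a decrease of over 4-fold lay outside counting error. DKK1 was far more abundant than DKK3 in both libraries, at 37.6 times its FPKM with FZD2 shRNA (19.5 to 83.2) and 74.1 times with the control (46.7 to 126).

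**Figure D3:**
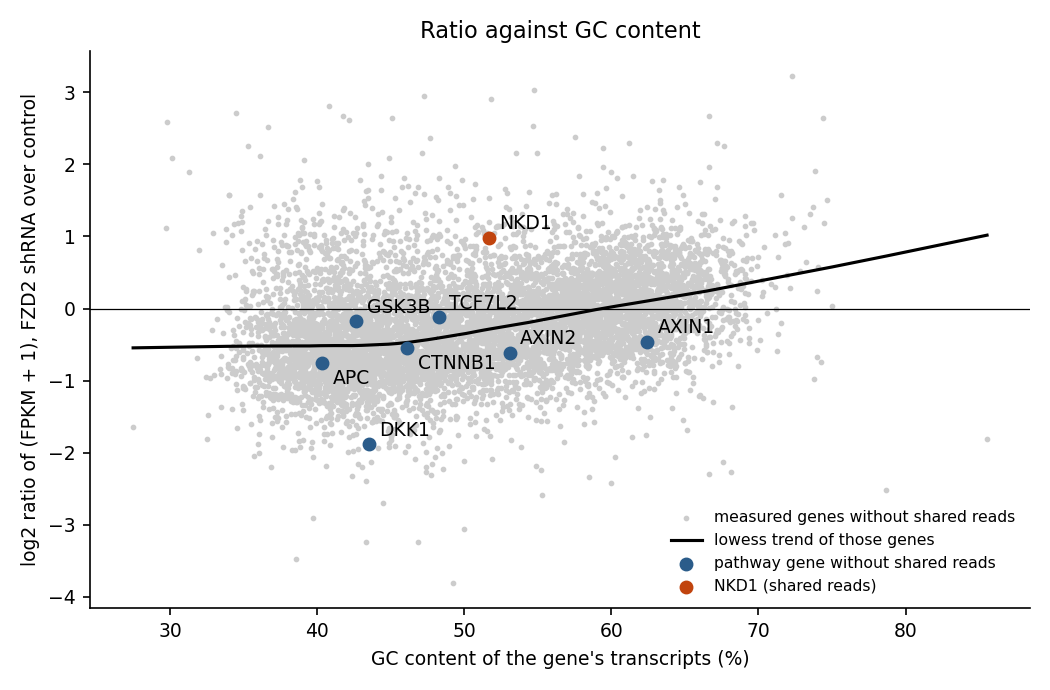
Log2 ratio of FPKM + 1 against the GC content of a gene's transcripts in percent, for measured genes without shared reads (grey), their lowess trend (black line), the 7 such members (blue) and NKD1 (orange). DKK1 lies far below the trend (-1.88 at a GC content of 43.5%), CTNNB1 close to it, GSK3B and TCF7L2 above it, and AXIN1 below it at the GC-rich end.

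The order of levels within a library differed at the top and at the bottom. In the control library DKK1 led at 60.8 FPKM, 1.73 times CTNNB1 (1.58 to 1.89), followed by TCF7L2, GSK3B, APC, AXIN1, AXIN2, DKK3 and NKD1. In the FZD2 shRNA library CTNNB1 led at 23.71 FPKM, 1.503 times DKK1 (1.29 to 1.75), and NKD1 had moved above the scaffolds, at 1.91 times AXIN1 (1.27 to 2.96). APC, AXIN1 and AXIN2 did not differ from their neighbours among themselves beyond counting error in either library. CTNNB1 stood at 32.9 times the FPKM of APC with FZD2 shRNA (25.5 to 43.2) and at 18.5 times with the control (15.8 to 21.8), the 2 intervals not overlapping. AXIN1 stood at 1.43 times AXIN2 with FZD2 shRNA (0.80 to 2.56) and 1.09 times with the control (0.73 to 1.61). These genes could not be separated by level in either library at this depth.

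**Figure D4:**
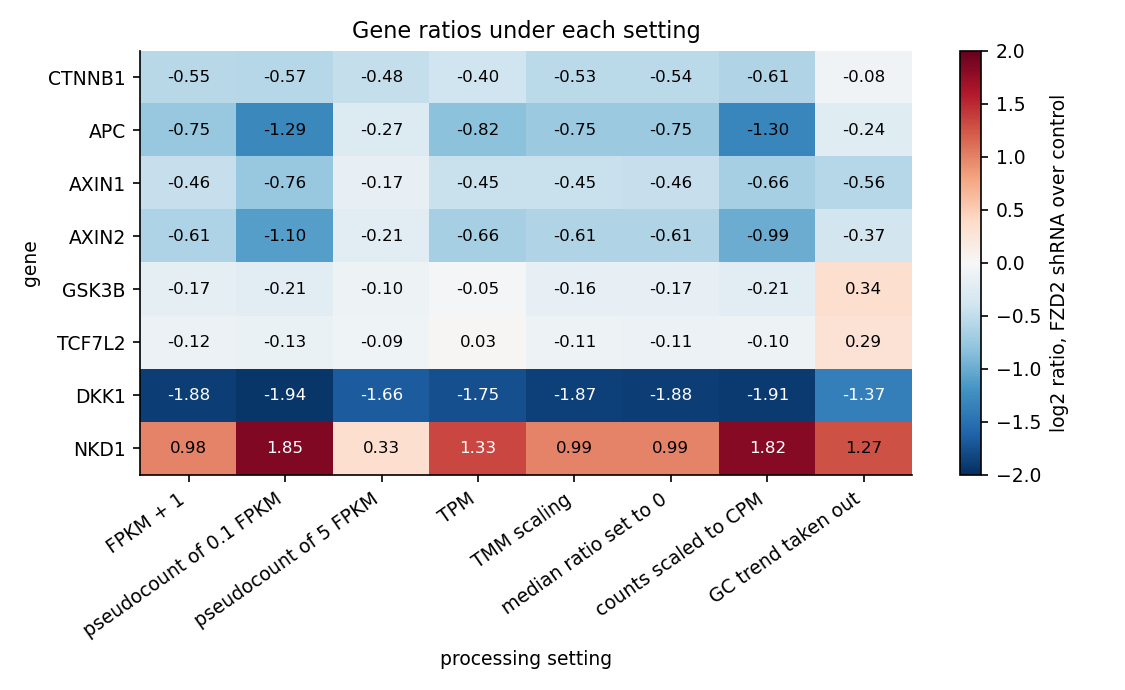
Log2 ratio of each measured member, FZD2 shRNA over control, under 8 processing settings (columns), coloured from blue (lower) to red (higher). DKK1 is at -1.37 or lower in each column, NKD1 is above 0 in each, and GSK3B and TCF7L2 change sign with the GC trend taken out, TCF7L2 also in TPM.

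The wider pathway was read from 5 lists by role, which share some genes, and the counts below leave out the 10 members. In all, 83 further genes were measured. Of these 4 were called higher, or 4.82% beside 15.2% of all measured genes, and 6 lower, or 7.23% beside 7.41%. All 4 higher genes had shared reads, and 1 of the 6 lower genes did. Among the 83, 60 had no shared reads. Over all measured genes without shared reads, 4.19% were called higher and 10.2% lower. The median ratio was -0.17, beside -0.0042 over all measured genes and -0.25 over those without shared reads. The GC trend was not taken out of this median or of the list medians below. With that trend taken out, 6 of 81 list genes were called higher and 4 lower, beside 21.4% and 2.53% of all genes with a GC content.

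Kinases, ubiquitin ligase parts and other regulators of the destruction complex had a median of -0.48 over 28 measured genes. Measured genes without shared reads had a median of -0.25. In the list 1 gene was called higher and 3 lower, beside 15.2% and 7.41% of all measured genes. FBXW11, a substrate-recognition subunit of the ligase that ubiquitinates beta-catenin, was at 2.31 FPKM with FZD2 shRNA and 7.83 with the control (ratio -1.42). RNF146, the ligase that removes axin after tankyrase has marked it, was at 3.57 and 9.46 FPKM (-1.19). Taking the GC trend out left both inside 2-fold, at -0.92 and -0.68. The third, FRAT2, a GSK3-binding protein named after its value was seen, was at 2.87 and 6.78 FPKM (-1.01, shared reads). The casein kinase gene CSNK1G1 was higher, at 7.89 and 3.38 FPKM (1.02, shared reads). GSK3A, the paralogue of GSK3B, also named after its value was seen, was at 45.35 and 41.8 FPKM (0.11), which was 10.1 times GSK3B with FZD2 shRNA (8.75 to 11.6) and 8.01 times with the control (7.02 to 9.15), with overlapping intervals.

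The junction partners of beta-catenin held 6 measured genes, none of them past 2-fold, where 15.2% of all measured genes were higher and 7.41% lower. CTNNA1, which encodes alpha-catenin, was at 75.67 and 103.94 FPKM (-0.45, shared reads). Its count ratio was larger, at -0.81 (-0.90 to -0.72), and the length that the files list for it differed too, at 2654.92 bases with FZD2 shRNA and 3365.58 with the control. CTNND1, which encodes p120-catenin, was at 17.22 and 23.69 FPKM (-0.44), and the actin linker VCL at 69.66 and 81.58 (-0.22), both above 0 with the GC trend taken out (0.03 and 0.18).

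Among 25 further TCF/LEF factors, coactivators and corepressors, 1 was called lower and 0 higher, beside 7.41% and 15.2% of all measured genes. Their median was -0.05. HDAC1, a histone deacetylase recruited by TLE corepressors, was at 21.76 FPKM with FZD2 shRNA and 64.92 with the control (-1.53, or -1.16 with the GC trend taken out). The corepressor TLE1 was at 7.25 and 15.02 FPKM (-0.96, shared reads), and SMARCA4, the chromatin-remodelling ATPase that beta-catenin recruits, was at 126.09 and 65.92 (0.93).

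Of 10 other measured antagonists, 2 were called higher and 0 lower, beside 15.2% and 7.41% of all measured genes. Their median was 0.31. By the counting interval 4 of the 10 lay above 1 and 1 below, beside 35.5% and 36.8% of all measured genes. The intervals of the other 5 include 1, as did those of 3978 of the 14377 measured genes. KREMEN1, a receptor through which DKK1 clears LRP from the membrane, was at 38.73 FPKM with FZD2 shRNA and 10.24 with the control (1.82). TRABD2A, a protease that inactivates Wnt ligands, was at 4.59 and 1.13 (1.39). Both had shared reads, as did 6223 of the measured genes, of which 29.7% were called higher, so both levels are uncertain. IGFBP4 had none, at 141.61 and 87.56 (0.69). SFRP1, a secreted Wnt-binding antagonist named after its value was seen, was at 15.78 and 14.14 FPKM (0.15), so that DKK1 was at 4.30 times SFRP1 in the control (3.86 to 4.79) and level with it with FZD2 shRNA (0.86 to 1.16 times).

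Transcripts known from other settings as beta-catenin/TCF targets went both ways. Of 17 measured beyond the members, 2 were called lower and 1 higher, beside 7.41% and 15.2% of all measured genes. Their median was -0.28, and that of measured genes without shared reads was -0.25. VEGFA, the endothelial growth factor, was at 8.06 FPKM with FZD2 shRNA and 25.79 with the control (-1.56), and MYC, the growth-promoting transcription factor, at 25.28 and 65.44 (-1.34). PPARD, a nuclear receptor, was at 28.29 and 8.89 (1.57, shared reads). CCND1, which encodes cyclin D1 and is named here after its value was seen, was at 148.83 and 114.68 FPKM (0.37). The measured targets among the members thus stood at -1.88 (DKK1), -0.61 (AXIN2) and 0.98 (NKD1).

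**Figure D5:**
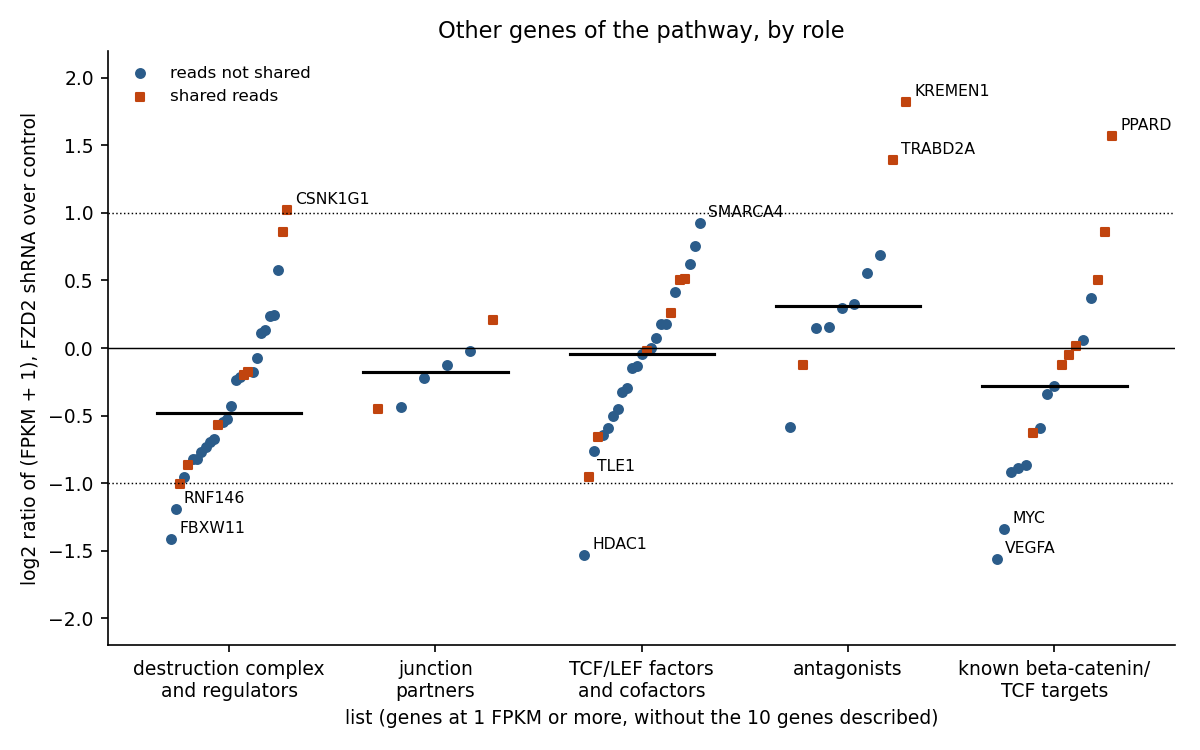
Log2 ratio of FPKM + 1, FZD2 shRNA over control, for measured genes of 5 lists without the 10 members, with circles for genes without and squares for genes with shared reads. Black bars are list medians, from -0.48 for the destruction complex regulators to 0.31 for the antagonists, and dotted lines mark 2-fold. The GC trend is not taken out.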

How the data were processed

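RNA was measured in 1 library per group. Per the labels' protocols, oligo(dT)-selected RNA was fragmented and copied with random primers. Per the submitters' processing notes, Bowtie2, HISAT and hg19 were used, without roles. For counting program, annotation and strand setting: not given in the sources used here. Expected counts as deposited are the authors' estimated reads per gene, not normalized, and the deposited FPKM values carry the authors' scaling to gene length and depth, per the file headers. Unlisted genes were set to 0.

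Symbols came from the RefSeq table (GRCh38.p14), whose gene coordinates were used to find genes that overlap a member. Of 14377 measured genes, 53 had no symbol. The ratio used a pseudocount of 1 FPKM. The 95% interval is the exact conditional binomial interval of the rounded expected counts. It takes reads as independent, which copies made in amplification are not, so intervals and the limit of 3 counts cover counting error only. A gene had shared reads if a count was not whole within 0.001. GC content and Alu-like sequence (blastn 2.17.0, query RN7SL1, word size 11, E-value at most 1e-05) came from GENCODE 29 transcripts, matched for 96.1% of measured genes. The GC trend was a lowess (fraction 0.3) over genes without shared reads. With 1 library per group no p-value is given. The rules were run on counts simulated from the control library with counting error only. That run held no shared reads, GC trend or replicate spread, so it does not show how the rules behave under those.

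Members, lists and alternatives were chosen with earlier results of these data known. Beyond the members and FZD2, up to 3 measured genes per list with the largest ratio in size were named, and others are marked in the text. Alternatives were other pseudocounts, filters, size limits, scalings, the interval as the call, the GC trend taken out and genes without shared reads. Tools were Python 3.11.15, SciPy 1.17.1, NumPy 2.4.6, statsmodels 0.14.6, pandas 2.3.3 and matplotlib 3.10.9.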

Additional observations from a re-analysis of the deposited data

How the results depend on the processing

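The DKK1 call was lost under 1 alternative, the size limit of 4-fold, which left 0 members lower. Against 1 lower member, 3 were lower with a pseudocount of 0.1 FPKM and at 1.5-fold, 2 in CPM and 5 by the counting interval, where over all genes 21.7% were lower at 1.5-fold and 10.1% in CPM. Against 0 higher members, 1 (NKD1) was higher under each of those 4 settings, in TPM and with the GC trend taken out, where over all genes 26.1% were higher at 1.5-fold, 16.9% in CPM, 20.3% in TPM and 21.4% after the GC correction. The members' median of -0.50 became -0.16 with the GC trend taken out. For the 83 list genes, 4 higher became 2 with a pseudocount of 5 FPKM, 7 in TPM, 10 at 1.5-fold, 0 at 4-fold, 0 without shared reads and 19 by the interval. The 6 lower became 10 with a pseudocount of 0.1, 3 with a pseudocount of 5, 11 in CPM, 24 at 1.5-fold, 0 at 4-fold and 38 by the interval. For all genes, 2188 higher became 941 with a pseudocount of 5, 3747 at 1.5-fold, 382 at 4-fold, 342 without shared reads and 5111 by the interval. The 1066 lower became 1749 with a pseudocount of 0.1, 301 with a pseudocount of 5, 3117 at 1.5-fold, 59 at 4-fold, 349 after the GC correction and 5288 by the interval. FZD2 was at -1.63 with a pseudocount of 5 and -2.04 after the GC correction. Beyond what a size limit, a pseudocount or a filter changes by construction, the cause was not tested. TPM moved the median of all genes by 0.14 and the GC correction by 0.23, and the members' values under these settings include those shifts. Depth limits AXIN1, AXIN2 and DKK3, each with fewer than 60 counts per library. No paired analysis was possible because each group held 1 library, and no library could be left out.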
